A study of Homo sapiens with 6 samples.

Results

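MicroRNA host transcripts are long RNAs from which the nuclear enzyme DROSHA cuts microRNA hairpins, or beside which the hairpins lie in the same transcription unit. The values of 8 of them were examined in the human cell line SCC25, which came from a squamous cell carcinoma of the tongue. They were MIR17HG, MIR22HG, MIR31HG, MIR100HG, MIR155HG, MIR205HG, MIR210HG and MIR503HG. Each was taken as the transcript cluster of the HTA 2.0 array that carries its symbol, 8 clusters of 67528 in the table, and each symbol was found on 1 cluster. The clusters of 3 hosts (MIR31HG, MIR100HG and MIR210HG) carry the symbol of the host alone. Those of the other 5 also carry symbols of microRNA genes, so that the host and its hairpins cannot be told apart there. One of these symbols, MIR18B on the cluster of MIR17HG, belongs to a gene of chromosome X.

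The TM group held 3 arrays of SCC25 cells exposed to tunicamycin (TM) at 5 µg mL−1 for 6 h, and the control group held 3 arrays of SCC25 cells given the vehicle DMSO (0.1%). TM stops the N-glycosylation of nascent proteins, which then misfold in the endoplasmic reticulum (ER). One field of the TM labels gives the line as SCC28, while the other fields give SCC25. The design text calls the replicates of each group independent. The array measures RNA per sample of cells, so a change in RNA per cell and a change in the share of cells with the RNA cannot be told apart.

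Before the hosts were compared, the arrays were checked on ER stress genes. DDIT3, the gene of the transcription factor CHOP, had log2 values of 9.04, 8.88 and 5.86 in TM 1, 2 and 3, against 6.02, 6.01 and 9.28 in control 1, 2 and 3. HERPUD1, which acts in ER-associated degradation, was at 12.26, 12.16 and 9.34 in the TM arrays, against 9.64, 9.48 and 12.35 in the control arrays. In both genes TM 3 thus sat beside control 1 and 2, and control 3 beside TM 1 and 2. In replicate 3, TM minus control was −3.42 for DDIT3, −3.01 for HERPUD1 and −1.24 for HSPA5, the gene of the ER chaperone BiP. TM 3 and control 3 thus go against their labels in these genes, and whether arrays or labels were exchanged was not tested. Over all 6 arrays neither DDIT3 nor HERPUD1 passed (limma adjusted p = 0.706 and 0.692), so a host that did not pass there cannot be read as one that did not respond to TM. The labels were kept, and the hosts, and other genes where stated, are given both for all 6 arrays and for the arrays numbered 1 and 2 alone. This choice rests on these ER stress genes and is no independent evidence of a response. Squamous markers such as KRT5 (mean 13.19) and DSG3 (mean 11.16) were high in all arrays. Of the 7 squamous markers measured, 0 passed the test in either set of arrays. The median of all clusters lay between 5.49 and 5.52 in the TM arrays and between 5.39 and 5.48 in the control arrays. The mean of 7 leukocyte markers lay between 4.50 and 4.56 in the TM arrays and between 4.39 and 4.51 in the control arrays, and that of 5 endothelial markers between 4.99 and 5.03 against 4.85 and 4.90. The mean of 7 fibroblast markers lay between 6.13 and 6.20 in the TM arrays, against 6.08 and 6.17 in the control arrays, and the part of these markers in the results below was not tested.

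The hosts give rise to microRNAs with different targets. A microRNA pairs with its target mRNAs mainly through its seed, bases 2 to 8 from the 5′ end, so microRNAs with the same seed share many targets. MIR17HG carries miR-17, miR-18a, miR-19a, miR-20a, miR-19b-1 and miR-92a-1 in a row, known for a role in cell proliferation and lymphoma. MIR22HG gives miR-22 and is known to be induced by several stresses. MIR31HG lies over miR-31, a microRNA abundant in squamous epithelium, and MIR205HG gives miR-205, another epithelial microRNA. MIR100HG holds miR-100, let-7a-2 and miR-125b-1. MIR155HG gives miR-155 of the immune response, MIR210HG lies over miR-210, a well known target of hypoxia-inducible factor, and MIR503HG lies over miR-503 and reaches into miR-424. By the gene table of GRCh38.p14, 21 microRNA genes lie within the hosts or within 10 kb of them on the same strand, and mature sequences of 38 names were matched in RefSeq. The main arms are shown here since they name what each host can yield. Capitals mark the seed.
hsa-miR-22-3p: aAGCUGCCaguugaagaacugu
hsa-miR-424-5p: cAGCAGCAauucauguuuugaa
hsa-miR-503-5p: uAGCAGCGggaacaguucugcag
hsa-miR-17-5p: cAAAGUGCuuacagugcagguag
hsa-miR-20a-5p: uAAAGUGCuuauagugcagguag
hsa-miR-18a-5p: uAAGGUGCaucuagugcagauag
hsa-miR-19a-3p: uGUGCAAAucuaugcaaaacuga
hsa-miR-19b-3p: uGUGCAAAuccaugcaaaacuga
hsa-miR-92a-3p: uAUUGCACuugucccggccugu
hsa-miR-31-5p: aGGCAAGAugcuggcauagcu
hsa-miR-100-5p: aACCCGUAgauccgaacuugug
hsa-let-7a-5p: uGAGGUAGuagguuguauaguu
hsa-miR-125b-5p: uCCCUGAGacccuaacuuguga
hsa-miR-155-5p: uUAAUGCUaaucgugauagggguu
hsa-miR-205-5p: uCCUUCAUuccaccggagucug
hsa-miR-210-3p: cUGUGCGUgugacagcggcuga

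Among these sequences, miR-17-5p and miR-20a-5p share the seed AAAGUGC, which 8 human mature microRNAs of the table have, and miR-19a-3p and miR-19b-3p share GUGCAAA. The seeds of miR-424-5p and miR-503-5p, AGCAGCA and AGCAGCG, differ in the last base alone. MiR-31-5p, miR-22-3p, miR-155-5p, miR-205-5p and miR-210-3p each have a seed found in 1 mature microRNA of the table. The array reports the long transcript or its hairpin and not these mature forms.

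With all 6 arrays, none of the 8 hosts passed the test between TM and control. In limma 0 of 8 had an adjusted p under 0.05, as did 0.00% of all clusters. At an unadjusted p under 0.05, 0 of 8 hosts were found, against 20.5% of all clusters (5.92% with a fold change of at least 1.2 as well). The log2 fold change, TM minus control, lay between −0.18 for MIR17HG and 0.17 for MIR22HG, with a median of 0.0156 over the hosts and 0.0373 over all clusters. The groups did not overlap for 1 of 8 hosts, against 28.0% of all clusters. In replicates 1 and 2 alone, 1 of 8 passed an adjusted p of 0.05 in limma, MIR22HG, against 1.22% of all clusters. It was higher in TM, as were 0.546% of all clusters, and 0 of 8 hosts passed with a lower value, as did 0.675%. The pairs of arrays did not overlap for 5 of 8 hosts there, against 60.6% of all clusters. The median over the hosts was −0.0228 there, against 0.0354 over all clusters. Without TM 1 or without TM 2, 0 of 67528 clusters passed in this set, so every call of replicates 1 and 2 named below is lost when either array is left out.

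**Figure D1:**
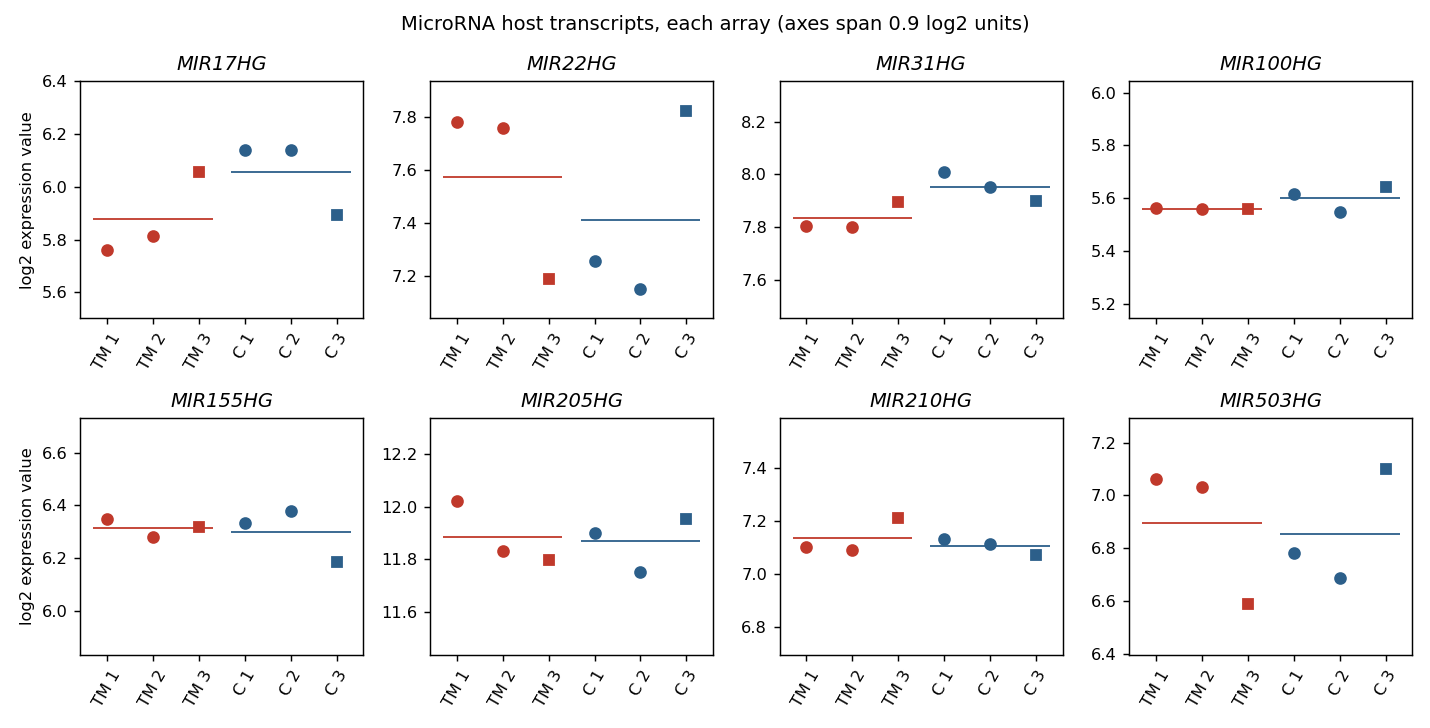
Log2 expression value of each host transcript in each array, TM arrays in red and control arrays (C) in blue, replicate 3 as squares, with lines at the group means. Every panel spans the same height on the log2 scale. In MIR22HG and MIR503HG the highest array was control 3 and TM 3 lay near or below control 1 and 2, and in MIR100HG all arrays lay between 5.55 and 5.64.

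MIR22HG was the host with the largest difference in replicates 1 and 2. Its gene lies at chr17:1711504-1716210 (GRCh38.p14, minus strand). The value was 7.78, 7.76 and 7.19 in TM 1, 2 and 3, against 7.25, 7.15 and 7.83 in control 1, 2 and 3. TM 1, TM 2 and control 3 were thus high, the other 3 arrays were low, and the groups overlapped. In replicates 1 and 2 MIR22HG rose by a log2 fold change of 0.57 (standard error, SE, 0.07, limma adjusted p = 0.0382), which is 1.48-fold. By p it ranked 438 among the 67528 clusters. The call ended without any 1 of the 4 arrays (limma adjusted p from 0.0791 to 0.193). In replicate 3 TM minus control was −0.64 on the log2 scale, and the fit of all 6 arrays gave 0.17 (SE 0.22, limma adjusted p = 0.696). With 1 array left out this last value ranged between 0.0351 (without control 2) and 0.37 (without control 3).

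MIR503HG was high in the same 3 arrays. Its gene lies at chrX:134543377-134546630 (minus strand), and its cluster also carries MIR424. The value was 7.06, 7.03 and 6.59 in the TM arrays, against 6.78, 6.68 and 7.10 in the control arrays. TM 1, TM 2 and control 3 were the high arrays, and TM 3 was the lowest of the 6. Its log2 fold change was 0.32 in replicates 1 and 2 (SE 0.07, limma adjusted p = 0.0733) and 0.04 over all 6 arrays (SE 0.16, limma adjusted p = 0.907), which did not pass. With all 6 arrays its sign turned with quantile normalization and with centring.

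MIR17HG, at chr13:91347687-91354577 (plus strand), was low in these 3 arrays. It was at 5.76, 5.82 and 6.06 in the TM arrays and at 6.14, 6.14 and 5.89 in the control arrays. TM 1, TM 2 and control 3 lay lowest here, TM 3 was beside control 1 and 2, and the groups overlapped. The log2 fold change of −0.35 in replicates 1 and 2 (SE 0.06, limma adjusted p = 0.0609) did not pass, nor did that of −0.18 over all 6 arrays (SE 0.10, limma adjusted p = 0.359). In replicate 3 TM was higher by 0.17 on the log2 scale. Centring each array on its median gave −0.39 in replicates 1 and 2 and took it past the threshold (limma adjusted p = 0.0456).

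**Figure D2:**
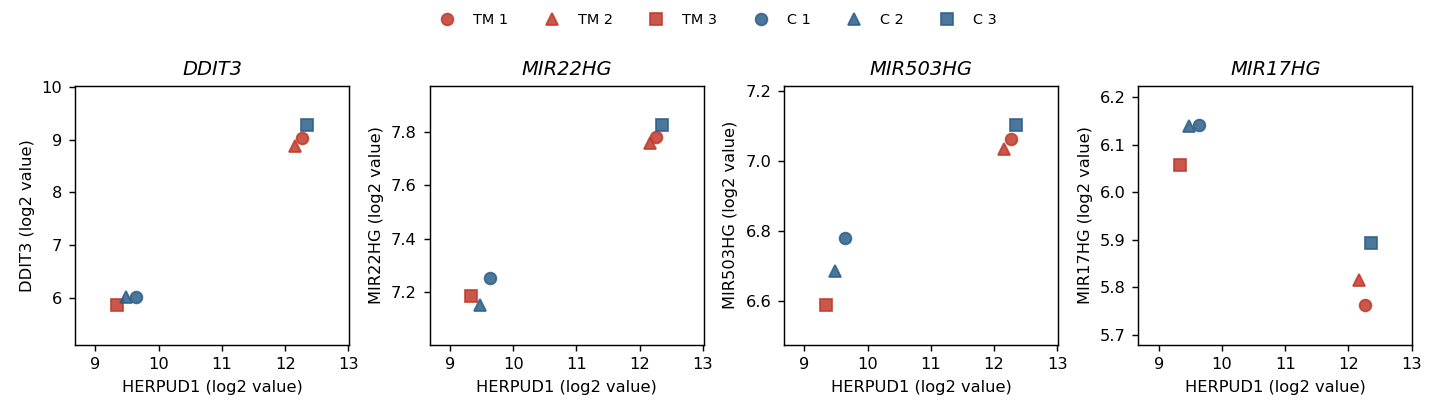
Log2 value of DDIT3, MIR22HG, MIR503HG and MIR17HG (vertical axes) against that of HERPUD1 (horizontal axes), 1 point per array, TM in red and control (C) in blue. The 6 arrays fall into a set with HERPUD1 above 12 (TM 1, TM 2, control 3) and a set below 10, and the first set is high in MIR22HG and MIR503HG and low in MIR17HG.

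The genes whose pattern over the 6 arrays was most like these hosts were sought among 922 clusters of 1 protein-coding or lncRNA symbol with a range of at least 0.5 on the log2 scale. For MIR22HG they were PIGA, which encodes an enzyme of GPI anchor synthesis, SLFN11 and P2RX7, each with a Pearson correlation of 0.999. In all, 248 of the 922 had a correlation over 0.95 with MIR22HG. For MIR503HG they were PLPP5 and SELENOS (0.993 each) and TUBE1 (0.992), with 194 over 0.95, and SELENOS encodes an ER membrane protein of the degradation pathway. For MIR17HG they were MINPP1 (0.996), TIMM21 (0.994) and FAM217B (0.993), with 55 over 0.95. As the arrays fall into the same sets of 3 in these genes, the correlation is mostly that of this split, and it is given as a description. The clusters most like each of the other hosts, given below, are the top 3 of the same 922 over 6 arrays and are also a description only. Over 0.95 there were 15 for MIR31HG, 3 for MIR155HG and 0 for each of MIR100HG, MIR205HG and MIR210HG.

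MIR31HG was the 1 host whose groups did not overlap. Its gene spans chr9:21454268-21559798 (minus strand). It was at 7.81, 7.80 and 7.897 in the TM arrays, against 8.01, 7.95 and 7.900 in the control arrays. All 3 TM arrays were lower, but TM 3 minus control 3 was only −0.00299. Over all 6 arrays the change was −0.12 on the log2 scale (SE 0.06, limma adjusted p = 0.275), and the exact permutation test, two-sided, gave p = 0.1, the smallest that 3 arrays against 3 allow. Groups that do not overlap and are lower in TM were seen in 7.49% of all clusters. In replicates 1 and 2 it was −0.18 (SE 0.06, limma adjusted p = 0.147). The clusters most like it were SLFN12 (Pearson correlation 0.979), the glutathione peroxidase gene GPX8 (0.973) and SPC25 (0.969).

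MIR205HG, at chr1:209428820-209432549 (plus strand), was at 12.02, 11.83 and 11.80 in the TM arrays, against 11.90, 11.75 and 11.95 in the control arrays. The groups overlapped, and TM 1 and control 3 were the highest arrays. TM minus control was 0.0147 on the log2 scale over all 6 arrays (SE 0.08, limma adjusted p = 0.935) and 0.10 in replicates 1 and 2 (SE 0.09, limma adjusted p = 0.519), and the first of these was below 0 with centring. The 3 genes most like it were interferon-stimulated, IFIT1 (Pearson correlation 0.937), IFI44L (0.931) and IFIT3 (0.905).

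MIR210HG, at chr11:565657-568457 (minus strand), was at 7.10, 7.09 and 7.21 in the TM arrays, against 7.13, 7.11 and 7.07 in the control arrays. TM 3 was the highest and control 3 the lowest array. MIR210HG differed by 0.03 on the log2 scale over all 6 arrays (SE 0.05, limma adjusted p = 0.788) and −0.03 in replicates 1 and 2 (SE 0.06, limma adjusted p = 0.804). With quantile normalization or centring the value over all 6 arrays was also below 0. LINC00260 (Pearson correlation 0.911), ZBTB16 (0.878) and RHOB (0.855) were most like it.

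MIR155HG, at chr21:25562145-25575168 (plus strand), was at 6.35, 6.28 and 6.32 in the TM arrays, against 6.33, 6.38 and 6.19 in the control arrays. Control 3 was the lowest array and the groups overlapped. A log2 fold change of 0.0165 was found over all 6 arrays (SE 0.06, limma adjusted p = 0.904) and −0.04 in replicates 1 and 2 (SE 0.06, limma adjusted p = 0.700), and the first of these was below 0 with quantile normalization and with centring. Its likest clusters were OR5P2 (Pearson correlation 0.967), ABRA (0.952) and TAS2R3 (0.952). In every array these clusters lay below 5.47, the median of all clusters by mean level, and each was lowest in control 3.

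MIR100HG, which spans chr11:122028329-122422871 (minus strand), varied least among the hosts, with a range of 0.0953 over the arrays. It was at 5.56 in each of TM 1, 2 and 3, against 5.62, 5.55 and 5.64 in the control arrays. Its mean of 5.58 lay close to the median of all clusters by mean level, 5.47, and the other 7 hosts also lay above that median. Its log2 fold change was −0.04 over all 6 arrays (SE 0.05, limma adjusted p = 0.655) and −0.0199 in replicates 1 and 2 (SE 0.06, limma adjusted p = 0.858). LINC00702 (Pearson correlation 0.918) was most like it, followed by HAUS2 (0.873) and CENPQ (0.866).

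**Figure D3:**
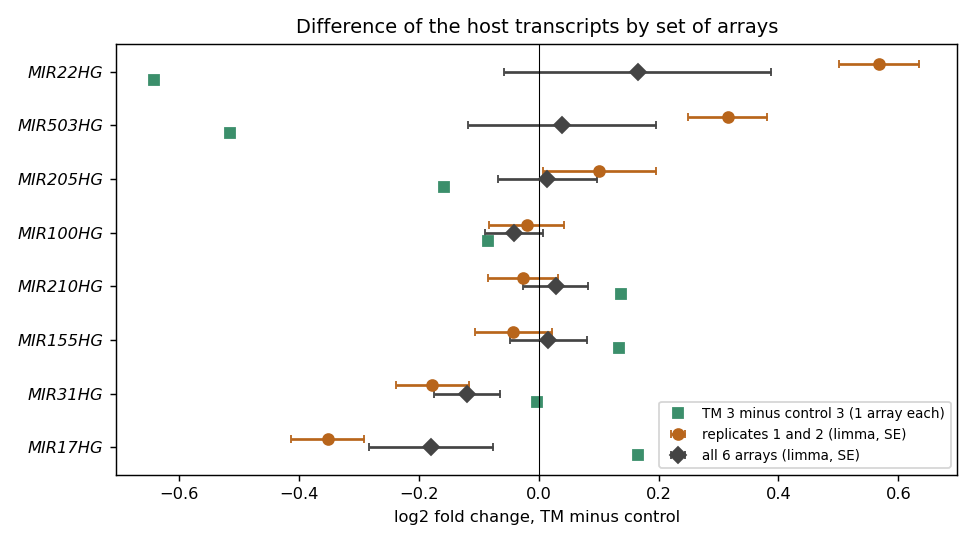
Log2 fold change, TM minus control, of each host in replicates 1 and 2 (orange, with the limma standard error), in all 6 arrays (dark grey, with the limma standard error) and in replicate 3 (green squares, 1 array each, no error). MIR22HG was at 0.57 in replicates 1 and 2 and at −0.64 in replicate 3, and 6 of 8 hosts had opposite signs in these sets.

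Between the sets of arrays, 6 of 8 hosts had a difference in replicate 3 of the opposite sign to that in replicates 1 and 2, against 44.0% of all clusters. The exceptions were MIR31HG and MIR100HG. A fold change of at least 1.2 in replicates 1 and 2 was seen in 3 of 8 hosts (MIR17HG, MIR22HG and MIR503HG), against 16.1% of all clusters. These 3 also had an unadjusted p under 0.05 there, as did MIR31HG, against 26.9% of all clusters.

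Hairpins with a cluster of their own gave a second reading for some hosts. Of the 21 microRNA genes 10 had such a cluster, and 2 of these 10 lay above the median of all clusters by mean level, MIR210 and MIR503. With all 6 arrays 0 of 10 passed, and in replicates 1 and 2 also 0 of 10 passed (limma, adjusted p), while at an unadjusted p under 0.05 there were 0 over all 6 arrays, against 20.5% of all clusters, and 1 higher and 1 lower in replicates 1 and 2, against 14.8% and 12.1%. The hairpin of MIR503, which lies within MIR503HG, was at 7.08, 7.17 and 6.87 in the TM arrays, against 6.73, 6.82 and 6.93 in the control arrays. TM 1 and TM 2 were the high arrays, as for MIR503HG, but TM 3 and control 3 lay between the others and differed by −0.0608. Its log2 fold change was 0.35 in replicates 1 and 2 (limma adjusted p = 0.0696) and 0.21 over all 6 arrays (limma adjusted p = 0.249). The hairpin of MIR210 was at 7.73, 8.05 and 7.83 in the TM arrays, against 7.70, 7.71 and 7.62 in the control arrays. The groups did not overlap, though TM 1 lay just above control 2. Groups that do not overlap and are higher in TM were seen in 20.5% of all clusters. The log2 fold change of this hairpin over all 6 arrays was 0.19 (limma adjusted p = 0.267), while MIR210HG itself had 0.03. The hairpin had 0.18 in replicates 1 and 2 (limma adjusted p = 0.346). The hairpins of MIR31 and MIR100 were named for their hosts after their values were seen. The hairpin of MIR31 was at 5.00, 4.84 and 5.49 in the TM arrays and at 4.92, 5.21 and 4.78 in the control arrays, with the groups overlapping. That of MIR100 was at 3.05, 3.21 and 3.14 in the TM arrays and at 3.32, 3.03 and 2.94 in the control arrays, and its groups overlapped too.

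**Figure D4:**
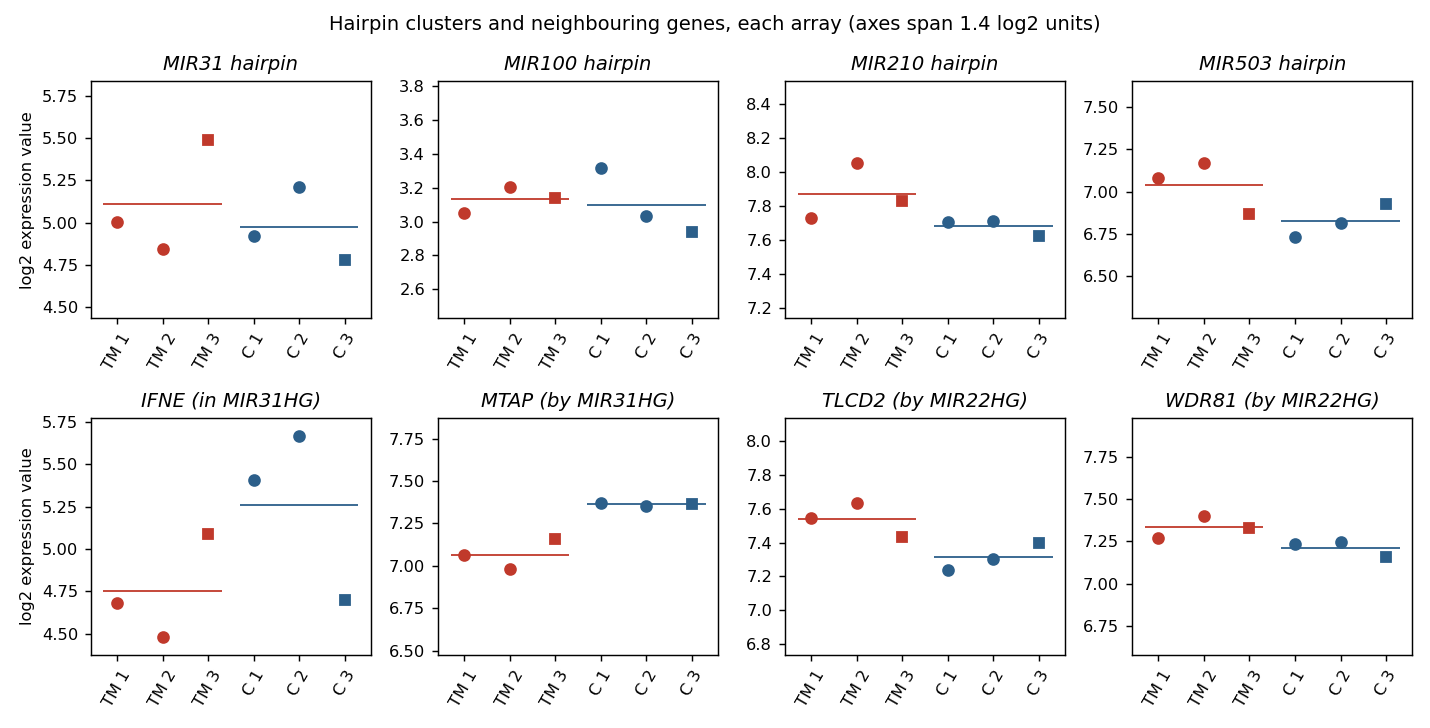
Log2 value in each array (TM in red, control (C) in blue, replicate 3 as squares, lines at the group means) of the hairpin clusters of MIR31, MIR100, MIR210 and MIR503 and of neighbours of MIR31HG and MIR22HG. Every panel spans the same height, and all TM arrays lay below the control arrays in MTAP and above them in TLCD2 and WDR81, while IFNE overlapped.

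Protein-coding neighbours were taken from the gene table, 18 genes in all, 2 that overlap a host (IFNE and BLID) and 16 that are the nearest measured gene on a side. With all 6 arrays 0 of 18 passed in limma, as did 0.00% of all clusters. In replicates 1 and 2, 1 rose (G0S2), against 0.546% of all clusters, and 1 fell (IFNE), against 0.675%. MTAP, which encodes a methionine salvage enzyme and lies 242838 bases from MIR31HG, was at 7.06, 6.98 and 7.16 in the TM arrays, against 7.37, 7.35 and 7.36 in the control arrays. It was lower in each TM array, also in replicate 3, with a log2 fold change of −0.30 over all 6 arrays (SE 0.06, limma adjusted p = 0.143) and −0.34 in replicates 1 and 2 (limma adjusted p = 0.0663). Groups that do not overlap and are lower in TM were seen in 3 of the 18 neighbours and in 7.49% of all clusters. IFNE, an epithelial type I interferon gene inside the span of MIR31HG, was named for its call after its values were seen. It was at 4.68, 4.48 and 5.09 in the TM arrays, against 5.41, 5.67 and 4.70 in the control arrays, with control 3 beside TM 1. In replicates 1 and 2 it fell by 0.95 on the log2 scale (SE 0.11, limma adjusted p = 0.0399). Its mean of 5.00 lay below the median of all clusters by mean level, 5.47. Over all 6 arrays its log2 fold change was −0.51 (limma adjusted p = 0.316).

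At the MIR22HG locus TLCD2 lies 1127 bases away and WDR81 313 bases away on the other side. TLCD2 was at 7.55, 7.63 and 7.43 in the TM arrays, against 7.24, 7.30 and 7.39 in the control arrays. WDR81, named after its values were seen, was at 7.27, 7.40 and 7.33 in the TM arrays, against 7.23, 7.25 and 7.16 in the control arrays. All TM arrays lay above all control arrays in both, while the groups overlapped for MIR22HG between them. Groups that do not overlap and are higher in TM were seen in 7 of the 18 neighbours and in 20.5% of all clusters. Neither TLCD2 nor WDR81 passed over all 6 arrays (log2 fold change 0.23 and 0.12, limma adjusted p = 0.174 and 0.277) or in replicates 1 and 2 (0.32 and 0.10, limma adjusted p = 0.0729 and 0.420). G0S2, which encodes an inhibitor of adipose triglyceride lipase, is the nearest measured gene on the higher-coordinate side of MIR205HG, 242863 bases away. G0S2 rose in replicates 1 and 2 with a log2 fold change of 0.70 (limma adjusted p = 0.0237). Its difference was −0.80 in replicate 3, and over all 6 arrays it had 0.20 (limma adjusted p = 0.696). The neighbours with the smallest p of the other hosts over all 6 arrays were SLITRK5 of MIR17HG (0.18), UBASH3B of MIR100HG (−0.06), MRPL39 of MIR155HG (−0.11), RASSF7 of MIR210HG (0.14) and PLAC1 of MIR503HG (−0.13), given as log2 fold changes. SLITRK5 lies 3668071 bases from MIR17HG, and its mean of 4.04 lay below the median of all clusters by mean level. On the other side of MIR17HG, GPC5 (0.19) lies 44044 bases away. The means of GPC5 (4.26) and PLAC1 (5.43) also lay below that median.

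Transcription factors known to act on these hosts were read beside them, and 0 of 7 measured passed in either set of arrays. MYC, which is known to drive MIR17HG, was at 10.49, 10.53 and 10.40 in the TM arrays, against 10.42, 10.32 and 10.59 in the control arrays. MYC differed by 0.03 on the log2 scale with all 6 arrays (limma adjusted p = 0.860), and with replicates 1 and 2 by 0.14 (limma adjusted p = 0.247). E2F3, also known to act on MIR17HG, was at 7.27, 7.34 and 7.436 in the TM arrays, against 7.55, 7.63 and 7.443 in the control arrays. E2F3 was lower in each TM array, with a log2 fold change of −0.19 over all 6 arrays (limma adjusted p = 0.206) and −0.29 in replicates 1 and 2 (limma adjusted p = 0.0841). Its TM 3 minus control 3 was only −0.00683, and clusters whose groups do not overlap, lower in TM, made up 7.49% of all. E2F1, HIF1A, EPAS1, NFKB1 and RELA had log2 fold changes between −0.03 and 0.09 over all 6 arrays. RELA and EPAS1 had 0.28 and 0.26 in replicates 1 and 2 (limma adjusted p = 0.0827 and 0.0831), NFKB1 had 0.18 there (limma adjusted p = 0.145), E2F1 had 0.11 and HIF1A had 0.06. These 5 genes had a negative difference in replicate 3.

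The promoter windows of MIR22HG and MIR503HG are shown since these hosts shared their high and low arrays. They run from 250 bases before the RefSeq start to 50 after it. That of MIR22HG is chr17:1716161-1716460 (minus strand, GRCh38.p14), with 72.3% G and C, and capitals mark a CCAAT box on either strand (ATTGG on the opposite one).
MIR22HG promoter: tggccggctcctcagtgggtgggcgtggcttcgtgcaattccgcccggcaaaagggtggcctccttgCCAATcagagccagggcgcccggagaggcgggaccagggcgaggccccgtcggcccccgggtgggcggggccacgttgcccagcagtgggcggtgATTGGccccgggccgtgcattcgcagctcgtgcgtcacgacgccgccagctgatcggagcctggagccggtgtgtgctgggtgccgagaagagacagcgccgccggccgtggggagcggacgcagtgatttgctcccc

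The window of MIR503HG is chrX:134546581-134546880 (minus strand), with 52.3% G and C. Capitals mark the letters of miR-424-5p, whose hairpin spans the start of MIR503HG in the table.
MIR503HG promoter: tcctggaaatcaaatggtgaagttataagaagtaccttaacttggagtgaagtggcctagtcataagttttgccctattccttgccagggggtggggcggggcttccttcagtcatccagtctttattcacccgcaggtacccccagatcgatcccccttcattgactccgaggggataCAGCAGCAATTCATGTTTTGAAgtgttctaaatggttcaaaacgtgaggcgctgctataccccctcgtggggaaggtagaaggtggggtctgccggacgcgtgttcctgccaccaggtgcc

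The 13 promoter windows of the hosts, 6 of them of MIR100HG, were searched on both strands for motifs of the ER stress response. The ER stress element, which holds the CCAAT box, was in 0 of 13 windows and in 0.0769% of 35116 windows of all genes. Its second form, ERSE-II, was in 0 and in 0.0541%, the XBP1 motif TGACGTGG in 0 and in 0.729%, and the core of the CHOP and ATF4 element (TGATGNAA) in 0 and in 3.62%. The CCAAT box alone was in 6 of 13 windows, 1 of them that of MIR22HG, against 34.6% of all windows. The core of the hypoxia response element (ACGTG, which lies within the XBP1 motif) was in 5 of 13, those of MIR210HG, MIR22HG, MIR503HG, MIR155HG and 1 of MIR100HG, against 21.4%. In MIR503HG this ACGTG lies within the letters of miR-424-3p, in the hairpin that spans the start. All of these are matches of letters in these windows only.

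Beside the 8 hosts, 24 other MIR host genes of 79 in the gene table had a cluster with their symbol alone or beside other MIR symbols only. Of these 24, 14 lay above the median of all clusters by mean level. With all 6 arrays 0 of 24 passed in limma and in replicates 1 and 2 also 0 of 24. At an unadjusted p under 0.05 over all 6 arrays, 8 were higher, against 15.3% of all clusters, and 1 was lower, against 5.14% of all clusters. At that p 6 were higher and 2 were lower in replicates 1 and 2, against 14.8% and 12.1%. The median log2 fold change was 0.0903 over all 6 arrays, against 0.0373 over all clusters. Once each array was centred on its median it was 0.0191, against −0.0338 over all clusters. The smallest p of those higher in TM belonged to MIR9-3HG (log2 fold change 0.20), MIR7-3HG (0.18), MIR497HG (0.28) and MIR3667HG (0.16). Among the 6 below 0, the smallest p belonged to MIR924HG (−0.27), MIR4453HG (−0.07), MIR3171HG (−0.04) and MIR181A2HG (−0.04).

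**Figure D5:**
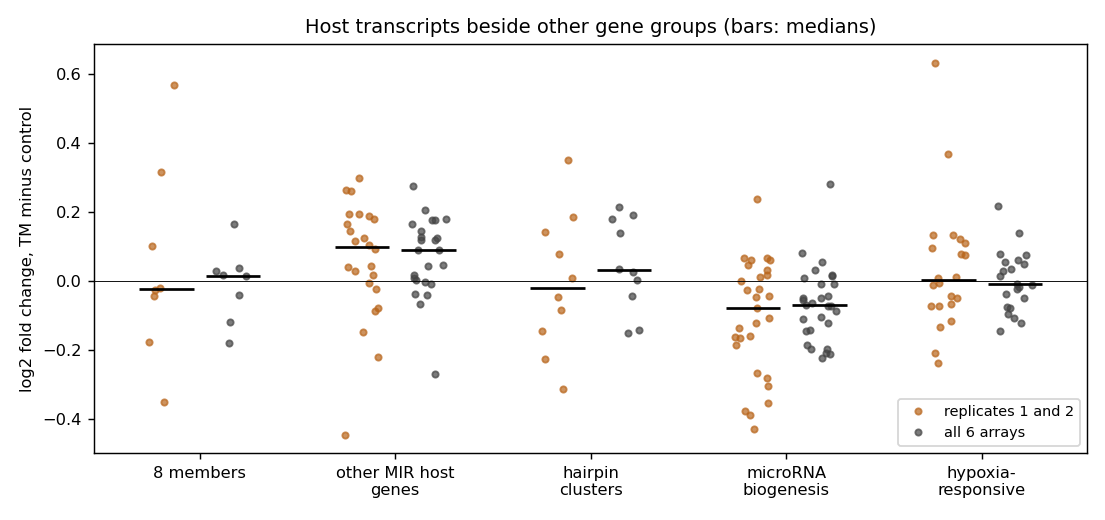
Log2 fold change, TM minus control, of each gene in 5 groups, in replicates 1 and 2 (orange) and over all 6 arrays (dark grey), with bars at the medians and points spread sideways for sight. The medians over all 6 arrays were 0.0156 for the 8 hosts, 0.0903 for the other MIR host genes, 0.0309 for the hairpin clusters, −0.0693 for the biogenesis genes and −0.00894 for the hypoxia-responsive genes.

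The genes that turn host transcripts into microRNAs had a median log2 fold change below 0, −0.0693 over all 6 arrays and −0.0786 in replicates 1 and 2, against 0.0373 and 0.0354 over all clusters. Of 29 measured, 0 passed in either set of arrays in limma. At an unadjusted p under 0.05, 1 was higher (15.3% of all clusters were) and 3 were lower (5.14% were) over all 6 arrays, and in replicates 1 and 2, 1 was higher (14.8% of all clusters were) and 8 were lower (12.1% were). NCBP2 and NCBP1, the subunits of the nuclear cap-binding complex, had log2 fold changes of −0.14 and −0.20 over all 6 arrays, and the uridylyltransferase genes TUT4 and TUT7 had −0.14 and −0.21. LIN28B, whose protein binds the let-7 precursor, was at 4.88, 5.00 and 4.98 in the TM arrays, against 4.66, 4.74 and 4.61 in the control arrays, with a log2 fold change of 0.28 over all 6 arrays (limma adjusted p = 0.143) and 0.24 in replicates 1 and 2 (limma adjusted p = 0.122). The log2 fold change over all 6 arrays was 0.08 for LIN28A, 0.05 for TNRC6C and 0.03 for DIS3L2. LIN28B and LIN28A had means of 4.81 and 5.11, below the median of all clusters by mean level (5.47), above which 27 of the 29 genes lay. The genes of the enzymes that cut the hairpin, DROSHA and DICER1, and DGCR8 beside them, were named after their values were seen. DROSHA was at 8.84, 8.86 and 9.16 in the TM arrays, against 9.20, 9.26 and 9.02 in the control arrays. DICER1 was at 9.25, 9.25 and 9.54 in the TM arrays, against 9.58, 9.69 and 9.35 in the control arrays. Both were low in TM 1, TM 2 and control 3, like MIR17HG. In replicates 1 and 2 their log2 fold changes were −0.38 and −0.39 (limma adjusted p = 0.0547 and 0.0613), which did not pass. DGCR8, which encodes the partner of DROSHA, had a log2 fold change of 0.07 there.

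Hypoxia-responsive genes were read for MIR210HG. Of 22 measured 0 passed over all 6 arrays, as did 0.00% of all clusters. In replicates 1 and 2, 1 rose, VEGFA, against 0.546% of all clusters. VEGFA is the gene of a vascular growth factor and is also known to respond to ER stress. VEGFA was at 9.35, 9.27 and 8.71 in the TM arrays, against 8.66, 8.70 and 9.32 in the control arrays. It was high in TM 1, TM 2 and control 3, with a log2 fold change of 0.63 in replicates 1 and 2 (limma adjusted p = 0.0334) and 0.22 over all 6 arrays (limma adjusted p = 0.608). ENO2 (0.14), KDM4B (0.08), ANKRD37 (0.06) and PFKFB4 (0.05) had the smallest p among the genes with a positive log2 fold change over all 6 arrays. The histone demethylase gene KDM3A (−0.12), the lactate dehydrogenase gene LDHA (−0.15), EGLN1, whose product marks hypoxia-inducible factor for degradation (−0.10), and BNIP3 (−0.11) had it among those below 0.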

How the data were processed

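GeneChip HTA 2.0 arrays of total RNA from SCC25 cells were used, 3 with TM and 3 control. The deposited table holds a log2 value for each transcript cluster on each array, normalized by the authors. The submitters' processing notes name MAS5, with background correction, probe set version and genome build not given in the sources used here. These values were used unaltered, with no filter on dim clusters. Cluster symbols came from the platform annotation, and positions, neighbours and sequences from RefSeq tables of GRCh38.p14. A listed gene was read from the cluster that carries its symbol alone or beside microRNA symbols only, the one with the highest mean where there were several. Some listed genes are not reported here.

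Differences between TM and control were fitted with limma 3.58.1 under R 4.3.3 (lmFit and eBayes, two-sided) on all 67528 clusters, with Benjamini-Hochberg adjustment over all of them at 0.05. Named genes were the 8 hosts, for each list the 4 genes of smallest p on either side over all 6 arrays, the neighbour of each host with the smallest p, the hairpins with the 2 smallest p, and the 3 clusters most like each host. Genes named outside this rule are given as chosen after their values were seen. The members and lists were chosen with earlier results of these data known. The limma step was tested on simulated normal data (67528 clusters, with the spread of replicates 1 and 2 as moderated by limma). Of clusters given a log2 change of 0.5 it recovered 77% with 2 arrays against 2, and 6.84% of its calls there were false. The moderated spread varies less between clusters than the observed one, so recovery in the real arrays may differ. It also does not describe the fit of all 6 arrays, for which no recovery is given. The few arrays limit how precise each value is. Alternatives were quantile normalization, centring, clusters above the median level, trend and robust options of eBayes, a block for the replicate number, leaving out each array or both replicate 3 arrays, averaging a gene over its clusters, and the thresholds of an unadjusted p under 0.05 with a fold change of at least 1.2. Matplotlib 3.10.9 (Python 3.11.15) drew the figures.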

Additional observations from a re-analysis of the deposited data

How the results depend on the processing

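With all 6 arrays the number of hosts past an adjusted p of 0.05 in limma was 0 under each setting that could change it but 1, and it was 1 (MIR22HG, at 0.57) without both replicate 3 arrays. Averaging a gene over its clusters changes nothing here, as each host has 1 cluster. In replicates 1 and 2 the number was 2 with centring (MIR17HG beside MIR22HG), 3 with clusters above the median level and 3 with trend and robust options (MIR503HG as well), 0 with the replicate number as a block (MIR22HG, limma adjusted p = 0.0989), and from 0 to 0 without each array in turn, where a lone array was assumed to vary like the others. Of the lists, in replicates 1 and 2 alone 1 hypoxia-responsive gene and 2 neighbouring genes passed, against 1.22% of all clusters. Signs turned for hosts near 0 over all 6 arrays. With quantile normalization these were MIR155HG (−0.0482), MIR210HG (−0.00836) and MIR503HG (−0.00390), and with centring MIR155HG (−0.0547), MIR205HG (−0.0565), MIR210HG (−0.0424) and MIR503HG (−0.0322). Without both replicate 3 arrays they were MIR155HG (−0.0419) and MIR210HG (−0.0256). With each array left out in turn, the log2 fold change over all 6 arrays ranged from −0.0406 to 0.0567 for MIR155HG, from −0.0546 to 0.0585 for MIR205HG, from −0.00906 to 0.0504 for MIR210HG and from −0.0462 to 0.19 for MIR503HG, and in replicates 1 and 2 from −0.0546 to 0.0147 for MIR100HG. The median of all clusters was 0.0373 as deposited, 0.00961 with quantile normalization and −0.0338 with centring. The cause of these turns was not tested. Deviations from the group means of same-numbered arrays correlated at −0.177, −0.311 and −0.534 for numbers 1, 2 and 3. TM 3 correlated with control 1 and 2 at 0.287 and 0.397, and TM 1 and 2 with control 3 at 0.275 and 0.393, so these values follow the place of the replicate 3 arrays and cannot show whether the numbers pair the arrays. Over all clusters, 369 were called higher and 456 lower in replicates 1 and 2, but 18 and 10 with the block, 563 and 1309 with centring, 1860 and 2711 with trend and robust options, 2708 and 2869 of 33764 above the median level, 70 and 59 without control 1, 21 and 9 without control 2, and 0 without TM 1 or TM 2.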
